A study of Homo sapiens with 9 samples.

Results

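The genes described here encode the translation initiation and elongation factors, the soluble proteins that load ribosomes onto mRNA and move them along it. They were taken by symbol, as every gene whose name begins with EIF1 to EIF6, EEF1 or EEF2, leaving out the eIF2alpha kinases (EIF2AK symbols) and EIF1AY. Of the 21619 genes in each table, 65 met this rule, and 57 of them were among the 13458 genes with enough counts to be tested. The other 8 are accounted for at the end of the results.

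The samples were orthotopic tumours of MDA-MB-231, an established triple-negative human breast cancer line, carrying ribosomal protein L10a tagged with EGFP. Cells went into the mammary fat pad of mice either with human bone marrow derived mesenchymal stem cells (MSC) at a 1:1 ratio (5 tumours, numbered 1, 6, 7, 10 and 15) or without them (4 tumours, numbered 9, 11, 12 and 13), each tumour from its own mouse and taken after 3 weeks. Both groups share the cell line, the tag and the injection site, and the labels name no strain, sex or age of the mice. Polysomes were pulled down from whole tumour lysates with anti-GFP beads, and the polyadenylated RNA bound to them was sequenced (TRAP-RNAseq). No library of total RNA was used here, so RNA abundance and ribosome association cannot be told apart, and in bulk tumours neither can fewer cells of a type and less RNA per cell.

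Initiation begins when eIF2, recharged with GTP by the exchange factor eIF2B, brings the initiator tRNA to the small ribosomal subunit, which eIF1, eIF1A, eIF3 and eIF5 prepare for scanning. The cap-binding complex eIF4F recruits the mRNA, and the 4E-binding proteins hold its cap-binding subunit eIF4E in check until the kinase mTORC1 phosphorylates them. In elongation eEF1A delivers each aminoacyl-tRNA, the eEF1B subunits recharge eEF1A, and eEF2 moves the ribosome on by a codon. Many of these factors are themselves made from TOP mRNAs, which start with a C and a run of pyrimidines and whose translation follows mTORC1 through the protein LARP1.

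The start of the gene is where that class of mRNA is defined, so the annotated first bases of a few factors are shown. Each sequence holds 10 bases before and 20 bases from the annotated RefSeq start on, on the gene's own strand in GRCh38.p14, and capitals mark a run of pyrimidines that begins with C at the first base. EEF1A1 (chr6:73521013-73521042, minus strand), EEF2 (chr19:3985444-3985473, minus strand), EIF3F (chr11:7987327-7987356, plus strand), EIF3D (chr22:36529147-36529176, minus strand), EIF4B (chr12:53006446-53006475, plus strand) and EIF4A2 (chr3:186783567-186783596, plus strand) have such a run. EEF1G (chr11:62573872-62573901, minus strand) and EEF1B2 (chr2:206159599-206159628, plus strand) are shown because both count among the known TOP mRNAs but have no run at the base annotated as first.
EEF1A1: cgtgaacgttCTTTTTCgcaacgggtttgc
EEF2: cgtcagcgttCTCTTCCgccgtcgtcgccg
EIF3F: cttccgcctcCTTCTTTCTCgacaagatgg
EIF3D: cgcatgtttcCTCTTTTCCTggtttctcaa
EIF4B: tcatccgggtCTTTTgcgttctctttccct
EIF4A2: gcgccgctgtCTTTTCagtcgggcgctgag
EEF1G: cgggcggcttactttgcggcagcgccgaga
EEF1B2: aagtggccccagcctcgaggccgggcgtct

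Of the 65 factors, 52 had a start in the RefSeq table, and 11 of the 52 (21.2%) had a C at the first base followed by at least 4 further C or T on the gene's strand. Of all 27305 gene starts in that table, 1104 (4.04%) had the same. A run within 10 bases of the start was far less selective, with 33.3% of all starts. The match describes the letters at the annotated start, which need not be the start used in these cells.

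Levels are given as CPM, counts scaled to a common library size with TMM factors. These factors ran from 0.937 in tumour 6 to 1.135 in tumour 15, both with MSC, and a higher factor lowers every CPM of that tumour. Gene counts ran from 29749909 to 50639082 per tumour with MSC and from 24616792 to 65275226 without MSC. VIM, a mesenchymal marker of the line, averaged 8976 CPM with MSC and 7379.9 CPM without. Of 8 markers high in the line 3 were called higher with MSC, CD44 (log2 0.61), AXL (0.53) and EGFR (0.90, edgeR adjusted p = 0.00865, 0.0137 and 0.00498). Of all tested genes 4.18% were called higher. VIM, ANXA1, TM4SF1, CAV1 and KRT18 did not pass, with log2 changes from 0.06 for CAV1 to 0.36 for TM4SF1. Of 5 markers low or absent in the line, ESR1, PGR and CDH1 reached at most 0.208, 0.0608 and 0.0202 CPM in any tumour. EPCAM stood at 8.63 to 14.7 CPM and GATA3 at 3.73 to 9.89 CPM over the 9 tumours, and neither was called. Tumour 15 with MSC stood apart for the summed level of 12 fibroblast and MSC markers, of which 7 were tested and 1 was higher with MSC. The sum was 121.5 CPM there, against 20.5 to 35.1 CPM in the other 4 tumours with MSC and 13.9 to 24.1 CPM without MSC. Most of it came from COL1A1, COL3A1 and DCN, at 55.4, 21.2 and 18.9 CPM in tumour 15. FBLN1 was not highest there, at 1.86 CPM against 2.45 CPM in tumour 1 with MSC and 4.22 CPM in tumour 12 without MSC. Summed endothelial markers, mostly PECAM1, were 4.91 to 7.26 CPM with MSC and 8.33 to 10.8 CPM without. Of these 5 markers 2 were tested and 1, PECAM1, was lower with MSC. KDR averaged 1.02 CPM with MSC and 1.33 CPM without, and was not called. CDH5, TEK and VWF reached at most 0.571 CPM, with means slightly higher with MSC. Summed leukocyte markers, mostly CD68, were 137.8 to 208.7 CPM with MSC and 94.3 to 138.0 CPM without. The part of these markers in the differences below was not tested. RPL10A, the gene of the tagged protein, averaged 2302 ± 419 CPM with MSC and 1953 ± 119 CPM without (SD, n = 5 and n = 4, as for all means below), a log2 change of 0.24 ± 0.14 (SE, edgeR adjusted p = 0.314).

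Tumours with MSC differed from those without at 4 of the 57 tested factors. The translocation factor EEF2, the largest eIF3 subunit gene EIF3A and the tissue-restricted elongation factor EEF1A2 were higher with MSC, and EEF1E1, whose product belongs to the multi-tRNA synthetase complex, was lower (edgeR quasi-likelihood test, adjusted p under 0.05 over all tested genes). That is 7.02% of the tested factors, against 7.78% of all 13458 tested genes, so the share of factors called was close to that of genes at large. At an unadjusted p under 0.05 there were 13 factors (22.8%), against 24.6% of all tested genes. Higher calls were 5.26% of the factors against 4.18% of all genes, and lower calls 1.75% against 3.60%. Log2 changes, with MSC over without, ran from -0.59 to 1.29, with a median of -0.02 over the 57 factors and 0.01 over all tested genes, and 2 factors, EEF1A2 and EEF1E1, moved by more than 1.5-fold.

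The sign of the change differed between complexes. All 12 genes of eIF1, eIF1A, eIF5, eIF2 and eIF2B had a negative log2 change, whereas 6 of the 7 eEF1 and eEF2 genes had a positive one. The eIF3 subunits lay on both sides of 0. Most of these single changes did not pass the test, and in all 31 of the 57 factors (54.4%) had a negative change, against 48.9% of all tested genes.

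**Figure D1:**
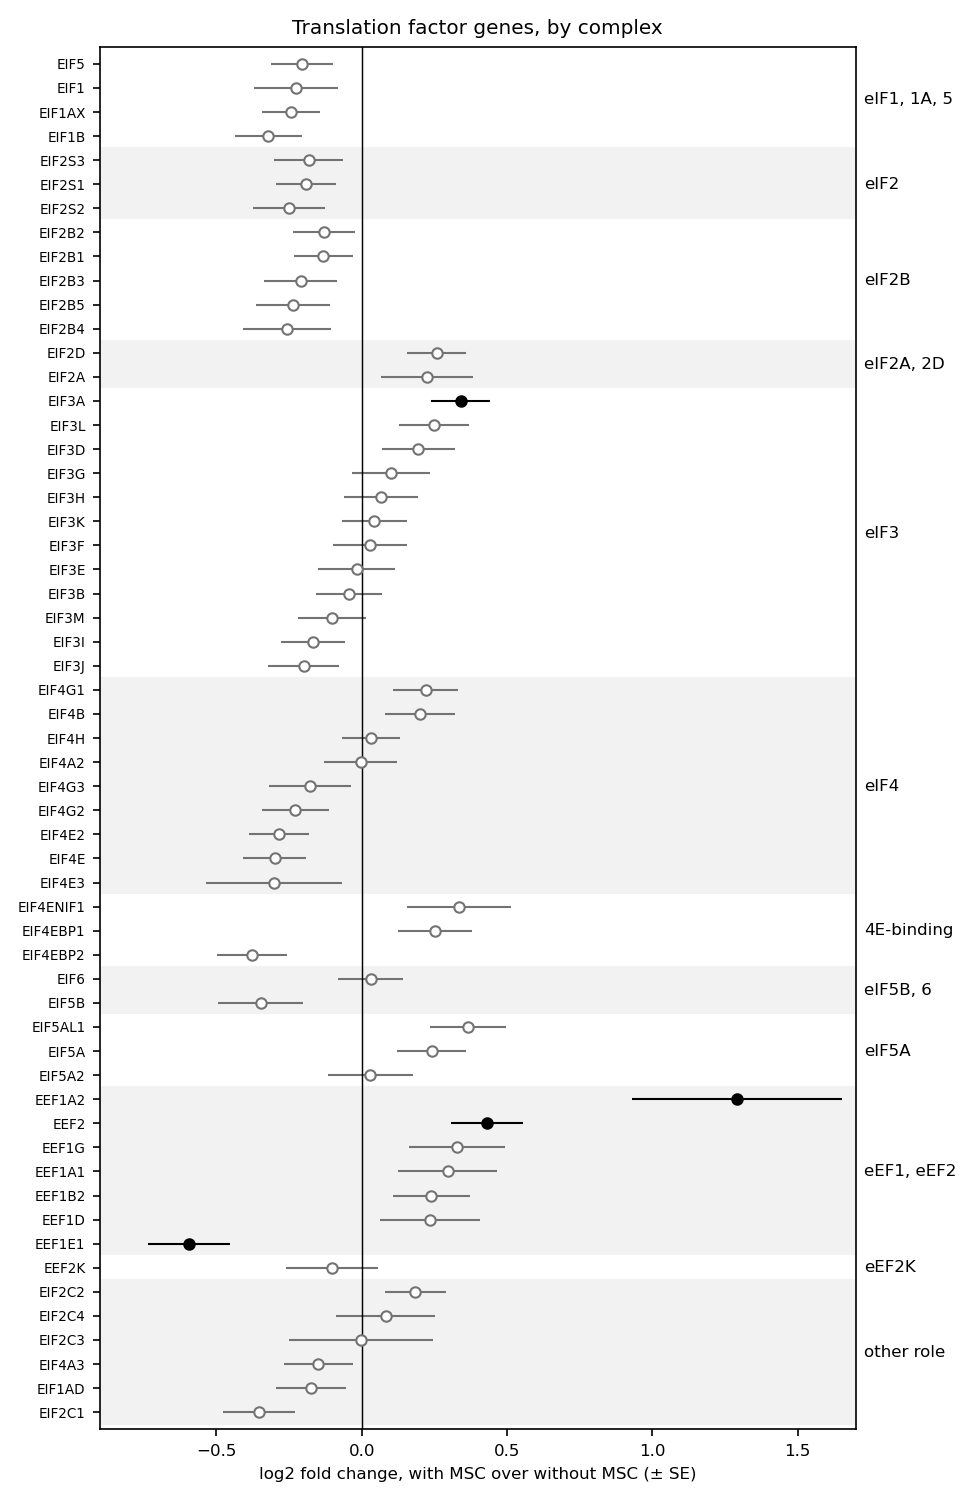
Log2 fold change of each of the 57 tested translation factor genes, with MSC over without MSC, on the x axis, with genes grouped by complex down the page; bars are SE and filled points passed the edgeR threshold. The 4 filled points are EIF3A, EEF1A2, EEF2 and EEF1E1, the 12 genes of eIF1, eIF1A, eIF5, eIF2 and eIF2B all lie left of 0, and 6 of the 7 elongation factor genes lie right of it.

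The scanning factors were the first such group. EIF1, which keeps scanning ribosomes from starting at wrong codons, averaged 1567 ± 234 CPM with MSC and 1831 ± 351 CPM without (log2 -0.23 ± 0.15, edgeR adjusted p = 0.354). Its paralog EIF1B had the smallest p of the group, at 85.1 ± 9.11 CPM with MSC and 106.5 ± 16.3 CPM without (log2 -0.32 ± 0.12, edgeR adjusted p = 0.0875). Per kb of transcript EIF1B reached 12.6 ± 1.31% of the EIF1 level with MSC and 13.6 ± 1.62% without, a difference smaller than the spread within the groups. EIF1AX, the gene of eIF1A, and EIF5, which triggers GTP hydrolysis by eIF2, had log2 changes of -0.24 and -0.21.

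The eIF2 and eIF2B subunits formed the second group. EIF2S2, the gene of the beta subunit of eIF2, had 549.6, 555, 607, 439 and 417 CPM in tumours 1, 6, 7, 10 and 15 with MSC, against 579, 608, 693 and 566 CPM in tumours 9, 11, 12 and 13 without MSC. Tumours 10 and 15 with MSC were the lowest of all 9, and tumour 7 with MSC lay among the tumours without MSC. Its log2 change was -0.25 ± 0.12 (edgeR adjusted p = 0.215), and those of EIF2S1 and EIF2S3, the alpha and gamma subunits, were -0.19 and -0.18. The 5 eIF2B subunit genes EIF2B1 to EIF2B5 lay between -0.26 and -0.13 with a median of -0.21. EIF2B5, the catalytic epsilon subunit, averaged 69.8 ± 6.71 CPM with MSC and 82.3 ± 17.7 CPM without (edgeR adjusted p = 0.258). None of the 12 scanning, eIF2 and eIF2B genes passed the test. EIF2A and EIF2D, which can bring initiator tRNA to the ribosome without eIF2, had positive log2 changes of 0.22 and 0.26. EIF2D did not overlap between the groups, at 63.0 to 76.7 CPM with MSC and 54.1 to 62.2 CPM without (edgeR adjusted p = 0.117).

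EIF3A, the scaffold subunit of the large complex eIF3, had 159.5, 168, 168, 198 and 176 CPM in tumours 1, 6, 7, 10 and 15 with MSC, against 134, 133, 129.8 and 152 CPM in tumours 9, 11, 12 and 13 without MSC. Every tumour with MSC lay above every tumour without, and the closest pair was tumour 1 with MSC and tumour 13 without. The means were 174 ± 14.8 and 137 ± 9.77 CPM with and without MSC (log2 0.34 ± 0.10, edgeR adjusted p = 0.0426). The call was narrow: leaving out any of 8 of the 9 tumours ended it, with log2 changes of 0.29 to 0.39 over the 9 fits. No other subunit of the 12 tested passed, and their log2 changes ran from -0.20 for EIF3J, a loosely bound subunit, to 0.25 for EIF3L, with 7 positive and 5 negative in all and a median of 0.04. EIF3D, the subunit that can itself bind the cap of some mRNAs, had a change of 0.20 ± 0.13 (edgeR adjusted p = 0.353), and EIF3B, a core subunit, -0.04 ± 0.11.

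Non-overlap between the groups was not frequent among the factors. EIF3A, EIF2D and EIF2C2 had every tumour with MSC above every tumour without (5.26% of the factors, against 5.13% of all tested genes). EIF4E and EIF2C1 had every tumour with MSC below (3.51%, against 4.87% of all tested genes).

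In the cap-binding machinery the 3 tested cap-binding proteins had negative log2 changes of similar size, none of which passed the test. EIF4E had 92.9, 112, 117, 119 and 105 CPM in tumours 1, 6, 7, 10 and 15 with MSC, against 156, 128, 133 and 119 CPM in tumours 9, 11, 12 and 13 without MSC. The groups did not overlap, but tumours 10 with MSC and 13 without were almost level, at 118.5 and 118.8 CPM. The log2 change was -0.30 ± 0.11 (edgeR adjusted p = 0.0872). The paralog EIF4E2, which binds caps but represses translation, had -0.29 ± 0.10 (edgeR adjusted p = 0.0890), and EIF4E3, at 5.06 ± 1.31 CPM with MSC and 6.20 ± 2.03 CPM without, had -0.30 ± 0.23. DESeq2's Wald test, which called 12.2% of all genes, put EIF4E and EIF4E2 past the threshold (adjusted p = 0.0488 and 0.0496). Both also passed in edgeR without tumour 13 without MSC (adjusted p = 0.0407 and 0.0307), and the direction of all 3 genes was negative in each of the 20 alternative fits.

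The scaffolds and helicase partners of eIF4F had changes of both signs, none past the threshold. EIF4G1, the main scaffold, averaged 220.2 ± 23.7 CPM with MSC and 189 ± 23.7 CPM without (log2 0.22 ± 0.11, edgeR adjusted p = 0.227), while EIF4G2, a scaffold that lacks the eIF4E site, averaged 1189 ± 68.8 CPM with MSC and 1393 ± 145 CPM without (log2 -0.23 ± 0.12, edgeR adjusted p = 0.224). EIF4G3, the paralog of EIF4G1, reached 8.28 ± 1.05% of the EIF4G1 level per kb with MSC and 11.1 ± 2.81% without. The helicase gene EIF4A2 averaged 622 ± 81.8 CPM with MSC and 623 ± 90.9 CPM without, and the helicase partner EIF4H had a log2 change of 0.03 ± 0.10. EIF4B, the other partner of the helicase, had a log2 change of 0.20 ± 0.12 (edgeR adjusted p = 0.321).

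The 4E-binding proteins EIF4EBP1 and EIF4EBP2 had changes of opposite sign, neither past the threshold. EIF4EBP2 had 54.3, 54.5, 56.0, 62.3 and 55.6 CPM in tumours 1, 6, 7, 10 and 15 with MSC, against 91.2, 75.4, 71.2 and 56.1 CPM in tumours 9, 11, 12 and 13 without MSC. The tumours with MSC were close together, and only tumour 13 of those without fell among them. The log2 change was -0.38 ± 0.12 (edgeR adjusted p = 0.0560). EIF4EBP1, the form best known as an mTORC1 target, averaged 235.5 ± 32.3 CPM with MSC and 198 ± 37.8 CPM without (log2 0.25 ± 0.13, edgeR adjusted p = 0.228), and with offsets for GC content and transcript length its change was 0.04. Per kb of transcript EIF4EBP1 exceeded EIF4EBP2 by 29.8 ± 5.13 times with MSC and by 20.2 ± 7.92 times without, with tumour 13 without MSC, at 31.9 times, inside the range of the tumours with MSC. EIF4ENIF1, which carries eIF4E into the nucleus, had a log2 change of 0.33 ± 0.18 (edgeR adjusted p = 0.256).

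Among the factors that act when the subunits join, EIF5B, the GTPase that joins the large subunit, averaged 162 ± 25.2 CPM with MSC and 206 ± 52.0 CPM without (log2 -0.35 ± 0.15, edgeR adjusted p = 0.144). EIF6, which keeps free large subunits apart, had a change of 0.03 ± 0.11. EIF5A, the hypusine-bearing factor that helps ribosomes past stalling sequences, averaged 1302 ± 98.4 CPM with MSC and 1101 ± 133 CPM without (log2 0.24 ± 0.12, edgeR adjusted p = 0.216). Its paralog EIF5A2 had a log2 change of 0.03 ± 0.14 and stood at 0.296 ± 0.0429% of the EIF5A level per kb with MSC and 0.349 ± 0.0905% without. EIF5AL1 is a near copy of EIF5A, so its change of 0.37 ± 0.13 (edgeR adjusted p = 0.0865) may share reads with EIF5A and is uncertain.

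Of the 7 genes with eEF1 or eEF2 symbols, EEF2 and EEF1A2 were called higher and EEF1E1 lower, beside 7.78% of all tested genes called in either direction. EEF2 had 808, 736, 729.7, 883 and 585 CPM in tumours 1, 6, 7, 10 and 15 with MSC, against 519.6, 593, 508 and 602 CPM in tumours 9, 11, 12 and 13 without MSC. Tumours 1, 6, 7 and 10 with MSC lay above all tumours without, and tumour 15 with MSC lay among them. The means were 748 ± 110.4 CPM with MSC and 556 ± 48.6 CPM without (log2 0.43 ± 0.12, edgeR adjusted p = 0.0386). Leaving out any 1 tumour other than 13 or 15 ended the call, with log2 changes of 0.36 to 0.50 over the 9 fits and edgeR adjusted p up to 0.159. EEF2K, the kinase that inactivates eEF2, averaged 11.02 ± 1.75 CPM with MSC and 11.8 ± 1.63 CPM without (log2 -0.10 ± 0.16, edgeR adjusted p = 0.738).

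EEF1A2, the form of eEF1A that normally replaces EEF1A1 in muscle and neurons, had 3.74, 3.84, 2.85, 4.70 and 1.60 CPM in tumours 1, 6, 7, 10 and 15 with MSC, against 1.43, 1.21, 0.538 and 2.18 CPM in tumours 9, 11, 12 and 13 without MSC. These values rest on 56 to 233 counts per tumour with MSC and 13 to 95 without. Tumour 15 with MSC again lay within the range of the tumours without MSC, and the other 4 lay above it. The log2 change was 1.29 ± 0.36 (edgeR adjusted p = 0.0346), the largest among the 57 factors. Leaving out any 1 tumour other than 13 or 15 ended this call too (1.05 to 1.62, edgeR adjusted p up to 0.106). Per kb the gene stayed a trace beside EEF1A1, at 0.0282 ± 0.00541% of the EEF1A1 level with MSC and 0.0144 ± 0.00799% without.

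EEF1E1, also known as AIMP3 or p18, had 60.5, 71.0, 74.8, 55.5 and 50.2 CPM in tumours 1, 6, 7, 10 and 15 with MSC, against 100.05, 80.6, 122 and 74.1 CPM in tumours 9, 11, 12 and 13 without MSC. Only tumour 7 with MSC and tumour 13 without MSC were out of order, and these were within 1 CPM of each other. The means were 62.4 ± 10.3 CPM with MSC and 94.2 ± 21.6 CPM without (log2 -0.59 ± 0.14, edgeR adjusted p = 0.0177). The call was lost without tumour 9 (-0.56, edgeR adjusted p = 0.0600) or tumour 12 (-0.45, 0.0915), the 2 highest of the group without MSC. Of its annotated exon bases 69.9% are shared with a readthrough gene, listed as EEF1E1-MUTED at 0 counts in all 9 tumours. Although its name places it in eEF1, its product scaffolds aminoacyl-tRNA synthetases rather than delivering tRNA to the ribosome.

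**Figure D2:**
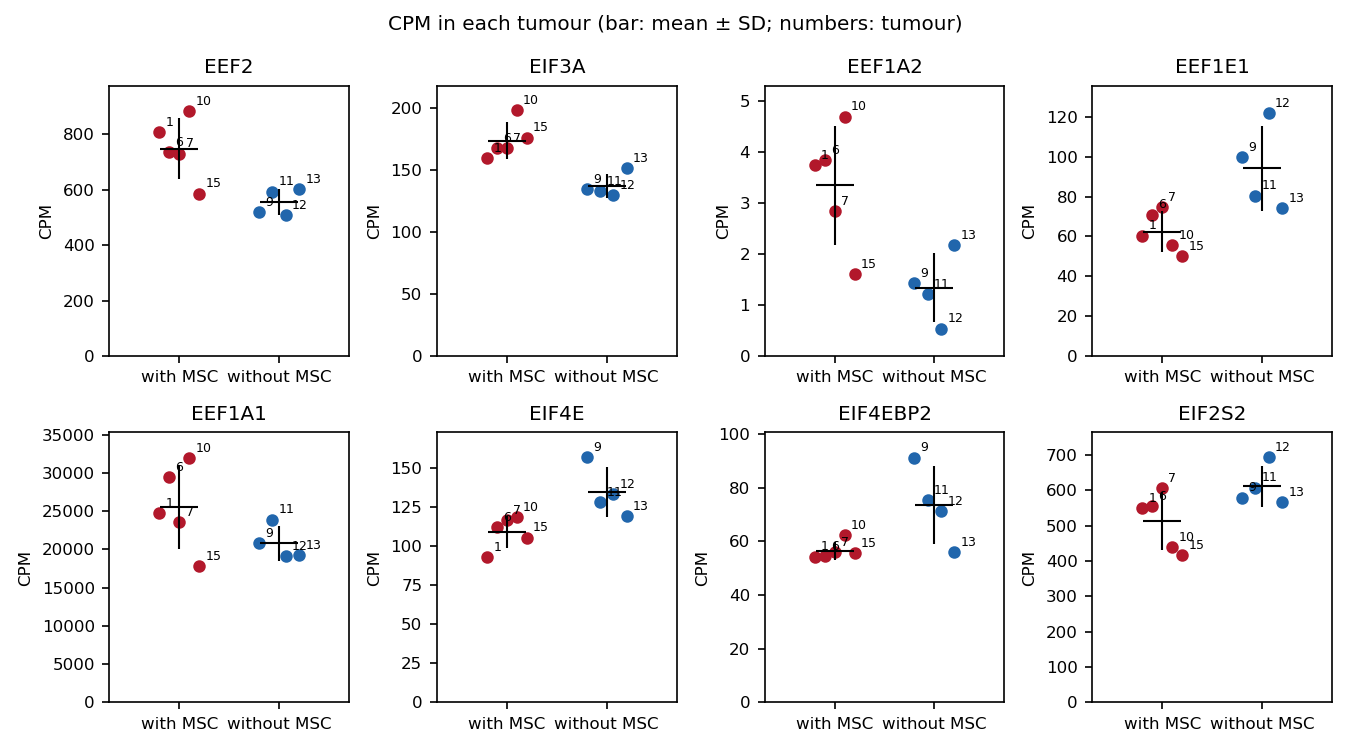
CPM (y axis, from 0) of 8 translation factor genes in each tumour, with MSC at left and without MSC at right in each panel; points are tumours with their numbers, horizontal bars are means and vertical bars SD (n = 5 and n = 4). EEF2, EIF3A and EEF1A2 are higher and EEF1E1 is lower with MSC by the edgeR test, tumour 15 with MSC is the lowest of its group for EEF2, EEF1A2, EEF1E1, EEF1A1 and EIF2S2, and only EIF3A and EIF4E show no overlap.

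The remaining elongation factors, among them EEF1A1, the most abundant gene of the family per kb, had positive changes that did not pass the test. EEF1A1 had 24741, 29482, 23529, 31957 and 17793 CPM in tumours 1, 6, 7, 10 and 15 with MSC, against 20858, 23904, 19146 and 19204 CPM in tumours 9, 11, 12 and 13 without MSC. In CPM, tumour 10 with MSC was the highest and tumour 15 with MSC the lowest of all 9, so the group with MSC enclosed the other. This order depended on the scaling. By share of all gene counts EEF1A1 took 2.019% in tumour 15, above 1.88% and 1.998% in tumours 12 and 13 without MSC and below the rest. The log2 change was 0.30 ± 0.17 (edgeR adjusted p = 0.300). The eEF1B genes EEF1G, EEF1B2 and EEF1D, which make up the exchange factor of eEF1A, had log2 changes of 0.33 ± 0.17, 0.24 ± 0.13 and 0.24 ± 0.17 (edgeR adjusted p = 0.224, 0.273 and 0.422). EEF1B2 averaged 1115 ± 200 CPM with MSC and 945 ± 19.4 CPM without, a group in which the 4 tumours ranged only from 924 to 967 CPM.

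Tumour 15 with MSC decided several of these calls. Without it EEF1A1 (log2 0.40, edgeR adjusted p = 0.0349), EEF1B2 (0.34, 0.0365) and EEF1G (0.43, 0.0454) were past the threshold, EEF2 stood at 0.50 (0.00982) and EEF1A2 at 1.47 (0.0204), while EIF3A, at 0.33, was not (0.0650). That made 5 factors higher and 1 lower. Of the 13325 genes tested in that fit 432 were called higher and 301 lower (5.5% in either direction). RPL10A then passed as well (log2 0.34, edgeR adjusted p = 0.0311). By CPM tumour 15 was the lowest of all 9 tumours for 20 of the 57 factors (35.1%), against 14.3% of all tested genes. It was also the tumour with the highest summed fibroblast and MSC markers and the highest TMM factor. By share of all gene counts the 65 factors took 3.923% there, above 3.809% and 3.919% in tumours 12 and 13 without MSC and below the rest.

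The 9 factors known as TOP mRNAs were EEF1A1, EEF1B2, EEF1D, EEF1G, EEF2, EIF3E, EIF3F, EIF3H and EIF4B. Of these 1 rose with MSC, EEF2 (11.1%, against 4.18% of all tested genes), and 1 had a negative log2 change (11.1%, against 48.9%). Their median was 0.24, against 0.01 over all tested genes. The 3 eIF3 subunits among them were near 0, with EIF3E at -0.02, EIF3F at 0.03 and EIF3H at 0.07, and the elongation factors ran from 0.24 to 0.43. Relative to each gene's mean over the 9 tumours on the log2 scale, their median stood at 0.11, 0.27, 0.02, 0.24 and -0.38 in tumours 1, 6, 7, 10 and 15 with MSC, and at -0.14, 0.04, -0.14 and -0.14 in tumours 9, 11, 12 and 13 without MSC. Tumours 1, 6, 7 and 10 with MSC had a positive median and tumour 15 the lowest of all, where 6 of the 9 genes had their minimum.

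**Figure D3:**
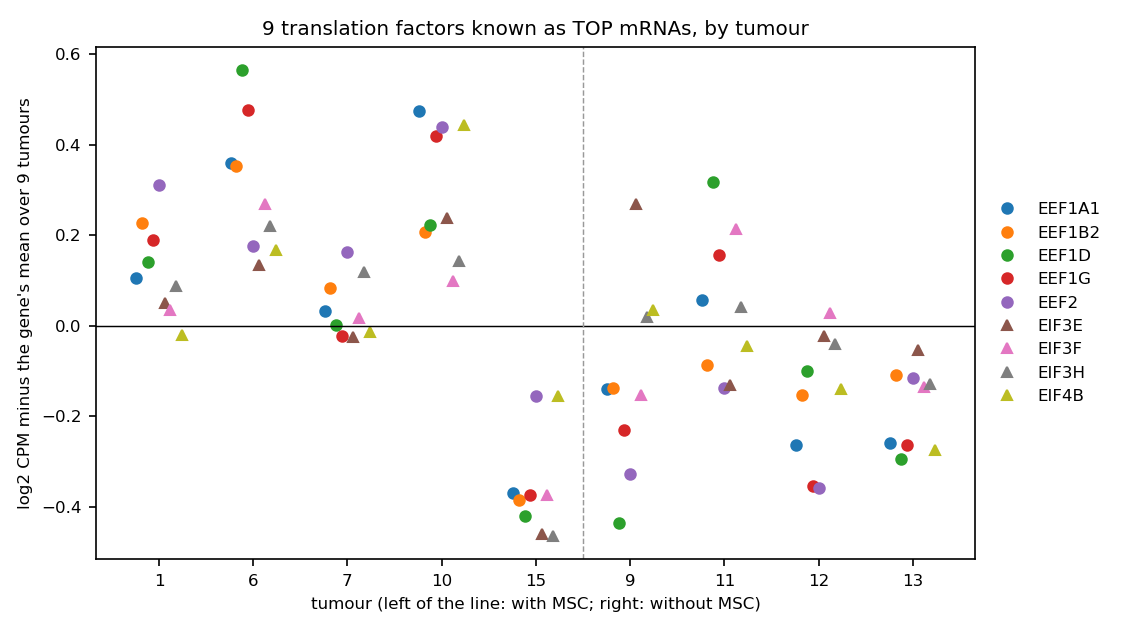
Log2 CPM of 9 translation factors known as TOP mRNAs, minus each gene's mean over the 9 tumours (y axis), by tumour (x axis), with MSC left of the dashed line and without MSC right of it; circles are elongation factors and triangles initiation factors. Tumours 6 and 10 with MSC are high with medians of 0.27 and 0.24, and tumour 15 with MSC is low for all 9 genes with a median of -0.38.

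The factors were also divided by the run of pyrimidines at the annotated start, which was read from the sequence alone. Tested factors without a start in the RefSeq table are in neither group. Among them are EIF3A and EEF1A2, both called higher, and EEF1D and EIF4EBP1. The 11 with such a run had 8 positive and 3 negative changes (27.3% negative) and a median log2 change of 0.20, with 1 called higher (EEF2, 9.09%). That median was 0.10 without tumour 10 with MSC and 0.12, with 6 positive and 5 negative changes, without tumour 6 with MSC. The 36 tested factors with a RefSeq start but no run had 26 negative changes (72.2%) and a median of -0.17, with 1 called lower (EEF1E1, 2.78%). Of all tested genes 48.9% had a negative change, 4.18% were called higher and 3.60% lower. Beside EEF1A1, EEF2, EIF3D, EIF3F, EIF4A2 and EIF4B, the runs were at the starts of EIF2A (0.22), EIF2D (0.26), EIF2S3 (-0.18), EIF3K (0.04) and EIF3M (-0.10). EEF1G and EEF1B2, which have no run at the base annotated as first, had changes of 0.33 and 0.24. GC content moved with the changes as well: across the 57 factors the log2 change and GC content had a Spearman correlation of 0.42, and across 12875 tested genes with an annotation one of 0.31. All points share the same 9 libraries. In a fit with offsets for GC content and transcript length the factors with a run had a median of 0.13 (8 positive and 3 negative changes) and those without a run one of -0.17 (27 of 36 negative). The offsets left EEF2 at 0.21 (edgeR adjusted p = 0.325), EIF3A at 0.31 (0.0544) and EEF1A2 at 1.05 (0.0748), so that no factor was called higher, while EEF1E1 (-0.52, 0.0294), EIF4EBP2 (-0.41, 0.0429) and the Argonaute gene EIF2C1 (-0.45, 0.0212) were lower. EIF4EBP1, EIF4G1 and EEF1D stood at 0.04, 0.02 and 0.04 with the offsets. In that fit 356 of the 13458 tested genes were called higher and 508 lower.

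The levels of the factors spanned more than 3 orders of magnitude per kb of transcript. Averaged over the 9 tumours, EEF1A1 stood at 5269.5 CPM per kb, followed by EEF1G at 2467, EEF1B2 at 1181, EIF5A at 954, EIF1 at 723 and EEF1D at 689 CPM per kb. EEF2 stood at 209 CPM per kb. Subunits that act in equal numbers in a complex did not have equal levels of RNA: in eIF2 they ran from 33.3 CPM per kb for EIF2S1 to 209.8 for EIF2S2, in eIF2B from 17.0 to 50.3 and in eIF3 from 23.7 for EIF3A to 456 for EIF3E. The lowest tested factors were EIF4E3 at 0.914 and EEF1A2 at 1.22 CPM per kb, beside the Argonautes EIF2C3 and EIF2C4 at 1.12 and 1.34. Transcript lengths are those of 1 annotated transcript a gene, so these levels are approximate.

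**Figure D4:**
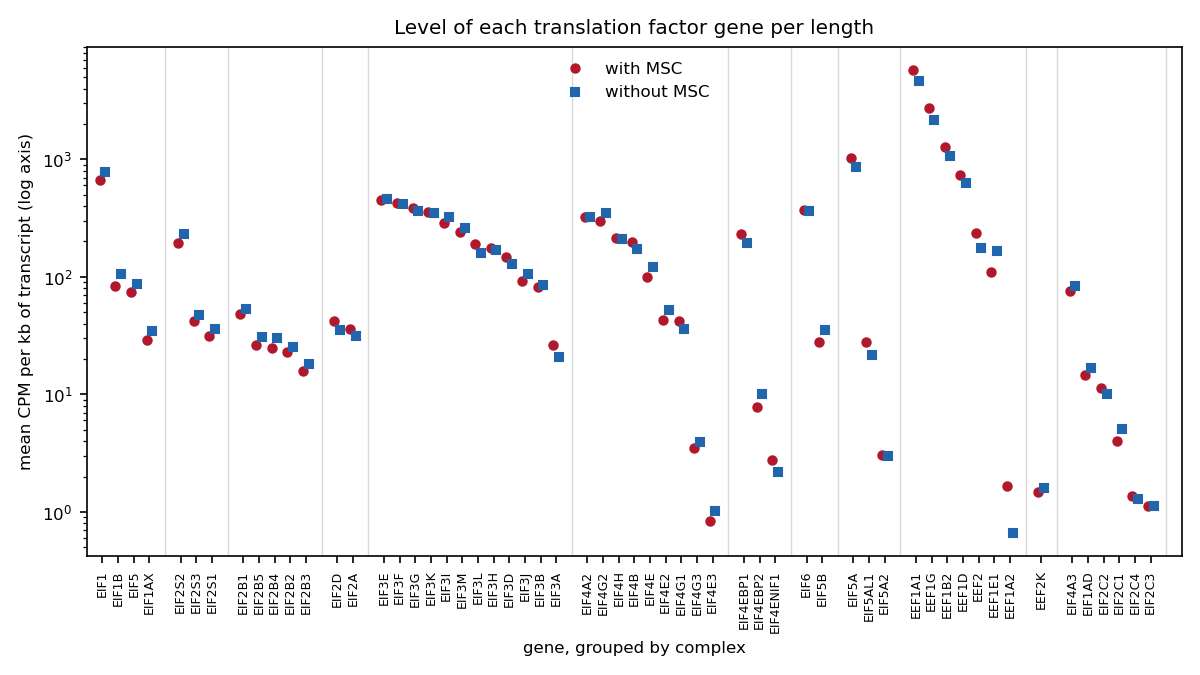
Mean CPM per kb of transcript (y axis, log scale) of each of the 57 tested translation factor genes, grouped by complex along the x axis; circles are tumours with MSC (n = 5) and squares tumours without MSC (n = 4). EEF1A1 and EEF1G are the highest, and the lowest points are EEF1A2 without MSC at 0.665 CPM per kb and EIF4E3 with MSC at 0.831 CPM per kb.

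Because EEF1A1 is so abundant, it weighs on any total. It took 2.53 ± 0.43% of all gene counts with MSC and 2.07 ± 0.18% without. All 65 factors took 4.59 ± 0.54% with MSC and 4.05 ± 0.25% without, and without EEF1A1 they took 2.06 ± 0.11% with MSC and 1.97 ± 0.07% without. Between tumours of a group the factors had a median coefficient of variation of 13.2% with MSC, near the 13.8% over all tested genes. Without MSC it was 12.7%, beside 16.9% over all tested genes. The median SE of a log2 change was 0.12 over the factors and 0.15 over all tested genes. The factors also had a higher median level, at 152 CPM against 18.2 CPM over all tested genes.

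The genes that act on these factors were read from the same fit. Of 62 listed genes of mTORC1, the eIF2alpha kinases, poly(A)-binding proteins, accessory factors, termination, factor modification and mitochondrial translation, all were tested, 3 were higher and 3 lower with MSC, which is 9.68% against 7.78% of all genes. DDIT4, an inhibitor of mTORC1 made under stress and low oxygen, averaged 177 ± 52.6 CPM with MSC and 96.2 ± 18.1 CPM without (log2 0.88 ± 0.21, edgeR adjusted p = 0.0254). PPP1R15A, the stress-induced phosphatase subunit that reverses phosphorylation of eIF2alpha, averaged 332 ± 69.6 CPM with MSC and 187 ± 52.1 CPM without (log2 0.82 ± 0.18, edgeR adjusted p = 0.0157). In both genes tumours 1, 6, 7 and 10 with MSC were above all tumours without, and tumour 15 with MSC was not. Without tumour 9 the call of PPP1R15A was lost (edgeR adjusted p = 0.0594), and that of DDIT4 was lost without tumours 9, 10, 11 or 12 (up to 0.0878). DPH1, an enzyme of the diphthamide modification of eEF2, averaged 13.8 ± 1.54 CPM with MSC and 8.78 ± 2.85 CPM without (log2 0.64 ± 0.18, edgeR adjusted p = 0.0389), a call lost in 7 of the 9 fits without 1 tumour.

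The 3 genes of these lists that were lower (4.84%, against 3.60% of all tested genes) were GSPT2, ABCE1 and DENR. GSPT2, a paralog of the release factor eRF3, had 5.56, 4.59, 4.16, 5.28 and 4.80 CPM in tumours 1, 6, 7, 10 and 15 with MSC, against 12.2, 10.4, 8.40 and 7.94 CPM in tumours 9, 11, 12 and 13 without MSC. The groups did not overlap (log2 -0.9998 ± 0.18, edgeR adjusted p = 0.00403), and the call held in all 9 fits that left out 1 tumour and in the 11 other alternatives. ABCE1, which splits ribosomes after termination, averaged 158 ± 6.94 CPM with MSC and 213 ± 30.5 CPM without (log2 -0.43 ± 0.11, edgeR adjusted p = 0.0199), and its call was lost without tumours 1, 9, 10 or 12 (up to 0.0931). DENR, which with MCTS1 supports recycling and reinitiation, averaged 334 ± 16.6 CPM with MSC and 422 ± 44.2 CPM without (log2 -0.34 ± 0.10, edgeR adjusted p = 0.0499), a call lost in 7 of the 9 fits without 1 tumour. The GC offsets ended the calls of DENR (0.0784) and DPH1 (0.113). All 8 scanning and accessory genes (DDX3X, DHX29, ABCF1, DENR, MCTS1, CDC123, BZW1 and BZW2) had negative changes with a median of -0.25, in all 20 alternatives as well, against 48.9% negative over all tested genes. The 6 termination and recycling genes were negative too, with a median of -0.15 and GSPT1 at -0.01. Of these 6, 5 were negative with limma-voom, without tumours 1, 9, 11, 13 or 15, and without tumours 15 and 12 together. ETF1, GSPT1, PELO and HBS1L did not pass the test. GSPT1, the more abundant paralog of GSPT2, averaged 119.6 CPM with MSC and 120.3 CPM without. The eIF2alpha kinases EIF2AK1, EIF2AK2, EIF2AK3 and EIF2AK4 did not pass, with log2 changes of -0.16, -0.20, 0.28 and -0.01.

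Of the 8 factors that were not tested, EIF4A1, EIF3CL, EIF4E1B, EEF1E1-MUTED and EIF3IP1 were listed at 0 in all 9 tumours. A count of 0 allows up to 3 counts in a library, but only of reads that could be assigned to the gene. For genes that share their exon bases or sequence with others, as EIF4A1, EEF1E1-MUTED and EIF3CL do, it gives no limit on their RNA. EIF3C had 3 counts in tumour 9 without MSC and none elsewhere, EIF4EBP3 had 1 count each in tumours 10 and 15 with MSC, and EEF1DP3 had 1 count in tumour 10 with MSC and 5 and 1 counts in tumours 9 and 11 without MSC. EIF4A1 encodes the main eIF4A helicase and EIF3C a core eIF3 subunit, both used by every dividing cell, so they are reported only as listed at or near 0. All annotated exon bases of EIF4A1 (100%) also belong to the readthrough gene SENP3-EIF4A1, which had 0 to 10 counts per tumour with MSC and 0 to 9 without, and EIF3C and EIF3CL are near-identical copies. EIF4EBP3 shares 73.4% of its exon bases with ANKHD1-EIF4EBP3, which had 59 to 107 counts per tumour with MSC and 71 to 121 without. No value is therefore given for eIF4A1 or eIF3c.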

How the data were processed

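The deposited files hold whole-number read counts per gene symbol for each of the 9 tumours, made by the authors and not normalized. Per the submitters' processing notes, CASAVA 1.8.1, TopHat 1.4.0 and HTSeq were used with the hg19 build. None of the annotation, HTSeq version and settings, strand use or any removal of mouse reads is given in the sources used here. Lines for reads assigned to no gene (10.2 to 12.1% of counts) were left out. No same-group libraries agreed within sampling noise (smallest chi-square per degree of freedom 24).

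Counts were fitted over all genes with edgeR 4.0.16 in R 4.3.3 (filterByExpr, TMM, glmQLFit with robust=TRUE, Benjamini-Hochberg adjustment, threshold 0.05), which was tested on simulated data. SE is the log2 change divided by the square root of F. The members, complexes and gene lists were chosen with earlier results of these data known. Named are all factors past the threshold, in each complex the smallest p and highest level per kb, 7 paralog pairs, 9 TOP mRNAs, called pathway genes and RPL10A. Others given values, including EIF1AX, EIF5, EIF2S1, EIF2S3, EIF2A, EIF3B, EIF3D, EIF3J, EIF3L, EIF4E3, EIF4G2 and EIF4H, were chosen after their values were seen.

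Alternatives to the scaling were library size only, upper-quartile factors and DESeq2 size factors. The others were no filter on low counts, a minimum of 5 CPM in 4 libraries, the DESeq2 1.42.0 Wald test, limma-voom (limma 3.58.1) with quality weights, robust=FALSE, thinning to the smallest library, offsets from splines (4 degrees of freedom) on GC content and log length, and leaving out each tumour or tumours 15 and 12 together. The offsets would also remove in part a true difference that follows GC content. Lengths and GC content came from GENCODE release 29 (GRCh38), matched to 95.7% of tested genes, as the NM-matched transcript of median length. Start sequences came from RefSeq (GRCh38.p14), matched by symbol or synonym. DPH6 was not found under that symbol.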

Additional observations from a re-analysis of the deposited data

Results flagged for a closer look

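In 4 of 68 groups of values examined (5.88%) the highest or lowest tumour stood far from the nearest other, and chance alone gives about 1 in 20. EIF4EBP2 was 62.3 CPM in tumour 10 with MSC, and the nearest other tumour with MSC had 56.0 CPM. EIF5A2 was 21.2 CPM in tumour 7 with MSC, against 16.4 CPM in the nearest. EIF3H, an eIF3 subunit, was 494.0 CPM in tumour 15 with MSC, against 724 CPM in the nearest. RPL10A, the gene of the tagged protein, was 1576 CPM in tumour 15 with MSC, against 2324 CPM in the nearest. Both low values were in the tumour with the highest summed fibroblast and MSC markers, and the part of those markers was not tested.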

How the results depend on the processing

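No paired analysis was possible because the groups share no replicate numbers. Over 20 alternatives, the 12 genes of eIF1, eIF1A, eIF5, eIF2 and eIF2B all stayed negative (medians -0.28 to -0.15) and the 6 elongation factors other than EEF1E1 positive (0.24 to 0.44). Both sets were grouped with results of these data known. The alternatives reuse the same 9 tumours or a part of them, so a stable sign is not independent evidence. The count called higher, 3, was 0 with limma-voom and 0 with GC and length offsets, and 0 to 5 when 1 tumour was left out. It was 0 without tumours 1, 6, 7, 10, 9, 11 or 12, and 5 without tumour 15 or tumour 13. Of all tested genes 7.78% were called in either direction in the main fit, 5.14% with limma-voom and 6.42% with the offsets. Without tumours 1, 6, 7, 10, 9, 11 and 12 these shares were 3.39, 5.09, 5.56, 3.59, 2.32, 5.05 and 1.8%. Without tumour 15 the share was 5.5%, and without tumour 13 it was 13.7%. The count called lower, 1, was 2 with no filter, 2 with the 5 CPM filter, 5 with DESeq2, 3 with the offsets, 0 without tumours 15 and 12 together, and 0 to 6 when 1 tumour was left out (0 without tumours 9 or 12, and 6 without tumour 13, where 13.7% of all genes were called). The share of all tested genes called was 6.16% with no filter, 12.4% with the 5 CPM filter and 12.2% with DESeq2. It was 2.23% without tumours 15 and 12 together. EIF3A lost its call in 13 of 20 alternatives, EEF2 in 9 of 20, EEF1A2 in 9 of the 19 that tested it, and EEF1E1 in 3 of 20. The cause was not tested. Of 799 values of named genes under alternatives, 688 kept direction and side of the threshold, 68 fell below it, 19 passed it and 24 changed sign. All sign changes were of log2 changes near 0: EIF4A2 was 0.0023 with upper-quartile factors, 0.0010 with the 5 CPM filter, 0.0493 with limma-voom, 0.0836 with the offsets, 0.0511 without tumours 15 and 12, and -0.0604 to 0.1001 without 1 tumour. EIF3E was 0.0490, 0.0985 and 0.0611 with limma-voom, the offsets and without tumours 15 and 12, and -0.0787 to 0.0765 without 1 tumour. EIF6 was -0.0064 with limma-voom, -0.1238 with the offsets and -0.0119 to 0.1149 without 1 tumour. EIF5A2 was -0.0032 with thinning and -0.0636 to 0.1019 without 1 tumour, and EIF3F was -0.0348 with the offsets and -0.0445 to 0.1150 without 1 tumour. Depth limits EEF1A2, which had 13 counts in tumour 12 without MSC.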

Other observations

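A few genes carry eIF symbols for historical reasons and have another main role. EIF2C1 to EIF2C4 are the older symbols of the Argonautes AGO1 to AGO4, which hold microRNAs. At the more abundant EIF2C1 and EIF2C2 the groups did not overlap, but in opposite directions, and neither passed the test. Of all tested genes 5.13% had every tumour with MSC above those without, and 4.87% had every tumour with MSC below. EIF2C1 had 14.8, 14.7, 14.6, 17.8 and 17.4 CPM in tumours 1, 6, 7, 10 and 15 with MSC, against 20.1, 20.1, 20.6 and 20.4 CPM in tumours 9, 11, 12 and 13 without MSC (log2 -0.35 ± 0.12, edgeR adjusted p = 0.0803). EIF2C2, the Argonaute that cuts its targets, averaged 35.9 ± 1.55 CPM with MSC and 31.6 ± 1.83 CPM without (log2 0.18 ± 0.11, edgeR adjusted p = 0.289). EIF2C3 and EIF2C4 had log2 changes of 0.00 ± 0.25 and 0.08 ± 0.17. EIF4A3, the helicase of the exon junction complex, had -0.15 ± 0.12 and EIF1AD, a nuclear protein, -0.17 ± 0.12.

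The factors of mitochondrial translation belong to a separate system that makes the proteins encoded in mitochondrial DNA. They showed no call among 9 tested genes, beside 7.78% of all tested genes called. At an unadjusted edgeR p under 0.05 there were 2 of the 9, beside 24.6% of all tested genes. The elongation factor TUFM averaged 223 ± 33.9 CPM with MSC and 206 ± 29.2 CPM without (log2 0.11 ± 0.12, edgeR adjusted p = 0.608). Its exchange factor TSFM averaged 30.1 ± 4.30 CPM with MSC and 37.3 ± 6.75 CPM without (log2 -0.31 ± 0.13, edgeR adjusted p = 0.159). Log2 changes of the 9 genes ran from -0.31 to 0.26, with a median of 0.01.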
